A study of Mus musculus with 9 samples.

Results

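CCR10 reporter-positive and reporter-negative innate lymphoid cells (ILCs) from the skin of mice with intact Rag1 were compared on 4 of the 9 arrays of the series. These 4 were chosen by their labels alone: 2 arrays of GFP+ cells and 2 arrays of GFP- cells from CCR10+/EGFP mice, called Rag1-sufficient here. All 9 samples came from female B6 mice with EGFP at 1 Ccr10 allele, so that every animal, control fraction included, carried the reporter and green fluorescence stood for CCR10. The other 5 arrays held 2 GFP+ and 3 GFP- samples from Rag1-/- CCR10+/EGFP mice. Such mice lack the recombinase that assembles T and B cell receptor genes. These 5 arrays served for comparison and also entered the estimate of spread behind every p-value below. Cells were sorted as CD45.2+, CD3- and negative for a lineage panel of CD3, CD5, CD11b, B220, 7-4, Gr-1 and a Ter antigen. No mast cell marker is in that panel. The age of the mice, any pooling of animals and whether replicates were separate animals are not in the labels, so the p-values speak of variation among these arrays alone, part or all of which may be technical.

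ILCs are tissue lymphocytes without rearranged antigen receptors that answer to cytokines released by epithelial and stromal cells. In skin, group 2 ILCs, which depend on the transcription factor GATA3 and make type 2 cytokines, are the prevalent kind. CCR10 is the receptor for the keratinocyte chemokine CCL27 and is used by skin-homing lymphocytes.

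Levels are probe set intensities on the linear scale of the deposited files, and differences are log2(value + 1) in GFP+ minus GFP- cells ± standard error (SE), so that a difference of 1 is a doubling. A probe set was called changed where its limma p, adjusted over all 17445 tested probe sets by Benjamini-Hochberg, was under 0.05. The spread behind each SE and p was estimated from all 9 arrays, the Rag1-/- arrays included. The number of arrays, 2 in each fraction, limits the precision of every value below. Array medians lay between 74.1 and 77.6, and the mean intensity was 311 and 304 in the GFP+ and 284 and 286 in the GFP- arrays. Genes that define the sorted cells were read on all 4 arrays: the pan-leukocyte gene Ptprc (CD45) at 1052 to 1369, the ILC regulator Id2 at 7472 to 7548, the interleukin-7 receptor chain Il7r at 3046 to 3805 and Gata3 at 2263 to 3881. The CD3 chain gene Cd3g, which the gate should exclude as surface protein, was read at 1767 and 1408 in GFP+ and at 891 and 932 in GFP- cells, with Cd3e at 157 to 270. The reporter locus Ccr10 was read at 163 and 130 in GFP+ and at 129 and 126 in GFP- cells, with the second GFP+ array close to both GFP- arrays. The mast cell protease Cpa3 was read at 20.3 and 21.5 in GFP+ and at 4932 and 4965 in GFP- cells. Fewer cells of a type and less RNA per cell cannot be told apart in such sorted bulk samples.

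Promoters are shown for neighbouring receptor paralogs and for 3 histone genes, whose members moved together. Pilra, Pilrb1 and Pilrb2, paired immunoglobulin-like receptors for sialylated ligands, fell in GFP+ cells and follow one another in the gene order with no protein-coding gene between them. The windows below are the 250 bases before each annotated start (RefSeq, GRCm38.p6, read 5′ to 3′ on the strand of the gene), with AGATAA, the core letters of a GATA motif, in capitals.
Pilra, chr5:137836279-137836528, minus strand: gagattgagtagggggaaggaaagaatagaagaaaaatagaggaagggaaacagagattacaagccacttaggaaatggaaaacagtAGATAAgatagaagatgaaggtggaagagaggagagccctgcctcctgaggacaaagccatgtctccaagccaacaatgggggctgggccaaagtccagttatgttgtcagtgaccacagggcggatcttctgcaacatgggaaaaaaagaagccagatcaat
Pilrb1, chr5:137858050-137858299, minus strand: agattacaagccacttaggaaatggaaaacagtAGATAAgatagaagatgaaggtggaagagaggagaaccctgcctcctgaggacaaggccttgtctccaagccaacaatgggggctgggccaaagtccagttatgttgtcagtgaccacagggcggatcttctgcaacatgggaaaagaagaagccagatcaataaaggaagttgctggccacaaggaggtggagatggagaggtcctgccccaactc
Pilrb2, chr5:137871759-137872008, minus strand: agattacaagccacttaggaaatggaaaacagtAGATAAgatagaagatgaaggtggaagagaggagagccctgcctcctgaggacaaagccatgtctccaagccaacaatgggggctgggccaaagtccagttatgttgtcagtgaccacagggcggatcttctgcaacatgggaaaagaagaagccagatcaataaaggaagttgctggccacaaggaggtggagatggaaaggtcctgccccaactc
The Pilrb1 and Pilrb2 windows were identical at 246 of 250 bases with 4 mismatches. The Pilra window aligned to that of Pilrb2 with 195 identical bases, 1 mismatch and 108 gapped bases. Each of the 3 windows held AGATAA once, as did 9.99% of the 32851 promoters of the table, counting both strands. Among genes that fell and had a promoter entry, 7 of 56 (12.5%) held it in any of their promoters. Pilra, Pilrb1 and Pilrb2, with their similar windows, are counted among these 7. The 12.5% is a share of genes and the 9.99% a share of promoters, so they are unlike measures.

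The histone genes H2bc14, H2bc3 and H2ac4 rose in GFP+ cells, and H2bc3 and H2ac4 are direct neighbours among protein-coding genes. Their windows are shown with 3 sets of letters in capitals, each searched on both strands: ATTTGCAT (the octamer known from H2B promoters), CCAAT (the CCAAT box) and TATAAA (the TATA box). No overlap between these motifs occurred in the windows shown.
H2bc14, chr13:21721794-21722043, plus strand: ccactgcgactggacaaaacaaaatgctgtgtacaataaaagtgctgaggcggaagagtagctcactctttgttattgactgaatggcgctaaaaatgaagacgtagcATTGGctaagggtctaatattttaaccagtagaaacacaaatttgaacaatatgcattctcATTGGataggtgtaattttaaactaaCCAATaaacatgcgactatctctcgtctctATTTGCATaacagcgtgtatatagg
H2bc3, chr13:23746484-23746733, plus strand: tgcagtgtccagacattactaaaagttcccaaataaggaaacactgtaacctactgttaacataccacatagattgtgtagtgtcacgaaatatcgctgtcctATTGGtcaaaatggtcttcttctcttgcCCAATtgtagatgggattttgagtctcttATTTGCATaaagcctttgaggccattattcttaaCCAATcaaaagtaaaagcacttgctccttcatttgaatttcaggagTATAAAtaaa
H2ac4, chr13:23750838-23751087, plus strand: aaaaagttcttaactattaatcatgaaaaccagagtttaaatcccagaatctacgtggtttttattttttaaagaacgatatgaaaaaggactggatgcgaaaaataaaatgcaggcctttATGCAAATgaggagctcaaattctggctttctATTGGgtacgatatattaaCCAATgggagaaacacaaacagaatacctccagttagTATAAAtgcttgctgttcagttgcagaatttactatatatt
The octamer stood once in each of the 3 windows shown, in 4 of the 7 called genes of the histone list and in 1.6% of all promoters. CCAAT stood in all 7 of these genes against 33.8% of all promoters. TATAAA stood in 4 of those 7 and in 12.4% of all promoters. A match of letters describes the sequence and does not show that a factor binds there. Histone genes that were not called were not counted, so these shares cannot tie the letters to the rise in GFP+ cells. The counts of genes take a match in any promoter of a gene, whereas the shares of all promoters count each promoter.

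GFP+ cells had less transcript of single receptor, cytokine and signalling genes such as Lilr4b, Il1b and Plek, beside a mast cell marker sum of 1298 and 1489 against 11296 and 11522 in GFP- cells, whose part in these differences was not tested. They had more of some histone and cell division genes and of single other genes such as Clec12a and Mpc1. Of 17445 probe sets, 58 (0.332%) were higher and 82 (0.47%) were lower in GFP+ cells. Counted as genes, with the brightest probe set for each, 31 of 13924 (0.223%) were higher and 74 (0.531%) lower. The higher sets comprised 7 genes of the histone list, 9 genes of DNA replication or mitosis, 14 other named genes (among them the histone gene H2bu2, which the list does not hold), 1 clone, 10 sets with no symbol, 11 with several symbols and 6 with several histone symbols. The lower sets comprised 10 genes of a mast cell list and 64 other named genes, of which 38 differed by more than 2-fold. The median difference over all tested genes was 0.02, with 54.1% of them positive and 45.8% negative.

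**Figure D1:**
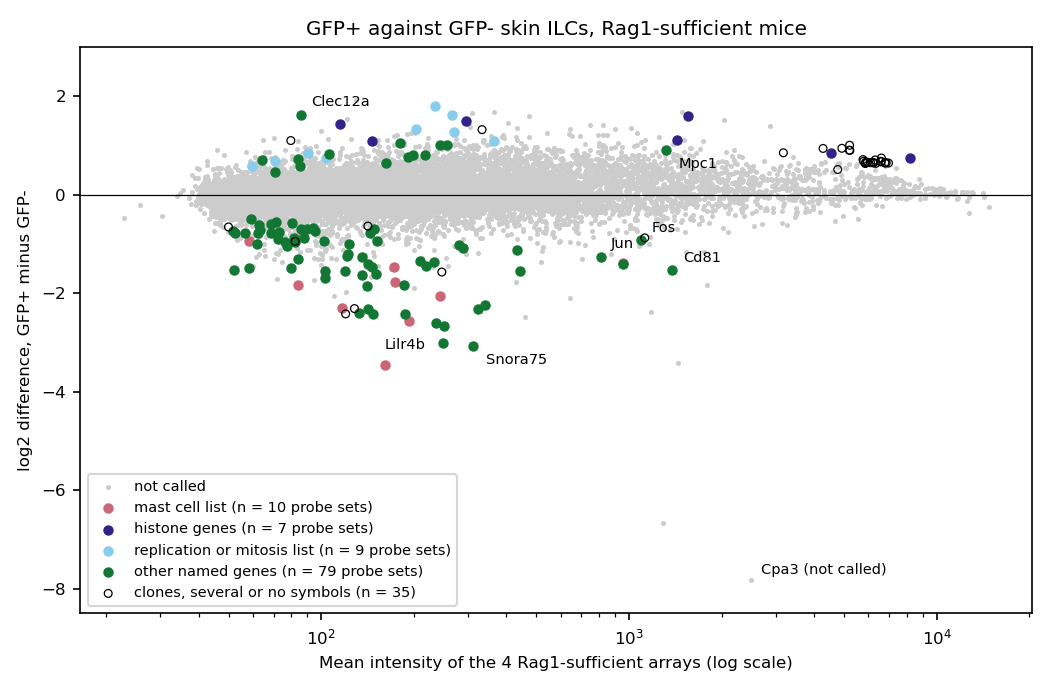
Each point is a probe set, with the mean intensity of the 4 Rag1-sufficient arrays (log scale) against its log2 difference, GFP+ minus GFP-. Called sets are coloured by gene group; 64 named genes outside the mast cell list lie below 0 and 14 outside the histone and division lists above it, while Cpa3, with the difference of -7.82, approximate because its GFP+ values are below the filter limit, was not called (adjusted p = 0.0812).

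Immunoglobulin-like and lectin receptors, many of which dampen leukocyte activation through inhibitory tail motifs, held more called genes than any other pathway list outside cell division. Of 20 measured members 6 fell and 1 rose, with a median of -0.10. Over all genes 0.531% fell and 0.223% rose, and these shares stand beside the count of every list below. The lists were chosen with earlier results of these data known, so the rank of a list is not a test. Lilr4b was read at 54.4 on both GFP+ arrays and at 427 and 458 on the GFP- arrays (-3.0 ± 0.38, adjusted p = 0.0135), which is 8.01-fold lower. Its direct neighbour Lilrb4a, an inhibitory receptor also known as gp49B, was read at 69.7 and 47.6 against 331 and 300 (-2.43 ± 0.34, adjusted p = 0.0189). For both genes the fractions stood far apart, with no overlap.

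The inhibitory receptor Pilra was read at 41.5 and 51.5 in GFP+ and at 202 and 272 in GFP- cells (-2.32 ± 0.31, adjusted p = 0.0159). Its activating counterpart Pilrb1 was read at 46.9 and 49.5 against 118 and 123 (-1.30 ± 0.09, adjusted p = 0.00202), and Pilrb2 at 25.0 and 27.6 against 84.4 and 71.0 (-1.52 ± 0.17, adjusted p = 0.0101). All 3 paralogs were thus lower in both GFP+ samples than in both GFP- samples, whether inhibitory or activating. Probe sequences were not used here, so how far probes of such similar genes read their neighbours is unknown. The sialic acid-binding receptor Cd33 was read at 41.1 and 41.8 against 122 and 113 (-1.48 ± 0.11, adjusted p = 0.00246), and the galactose-binding lectin Clec10a at 32.6 and 27.6 against 81.0 and 92.1 (-1.49 ± 0.15, adjusted p = 0.0101). The GFP+ means of Cd33, Clec10a and Pilrb2 were below the filter limit of 41.6, as were those of Gpr141b, Xcr1, Mrgprb13, Stard13, Cd200r1, Cpa3 and the dimmer probe set of Wdfy4 and the GFP- mean of Clec12a given below, so that the sizes of all these differences are approximate.

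Clec12a, an inhibitory C-type lectin receptor, went the other way. It was read at 165 and 97.6 in GFP+ and at 37.9 and 43.1 in GFP- cells (1.63 ± 0.24, adjusted p = 0.0221), and at 26.9 to 43.8 on the 5 Rag1-/- arrays. The GFP+ arrays of Rag1-sufficient mice were thus the high ones among all 9.

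**Figure D2:**
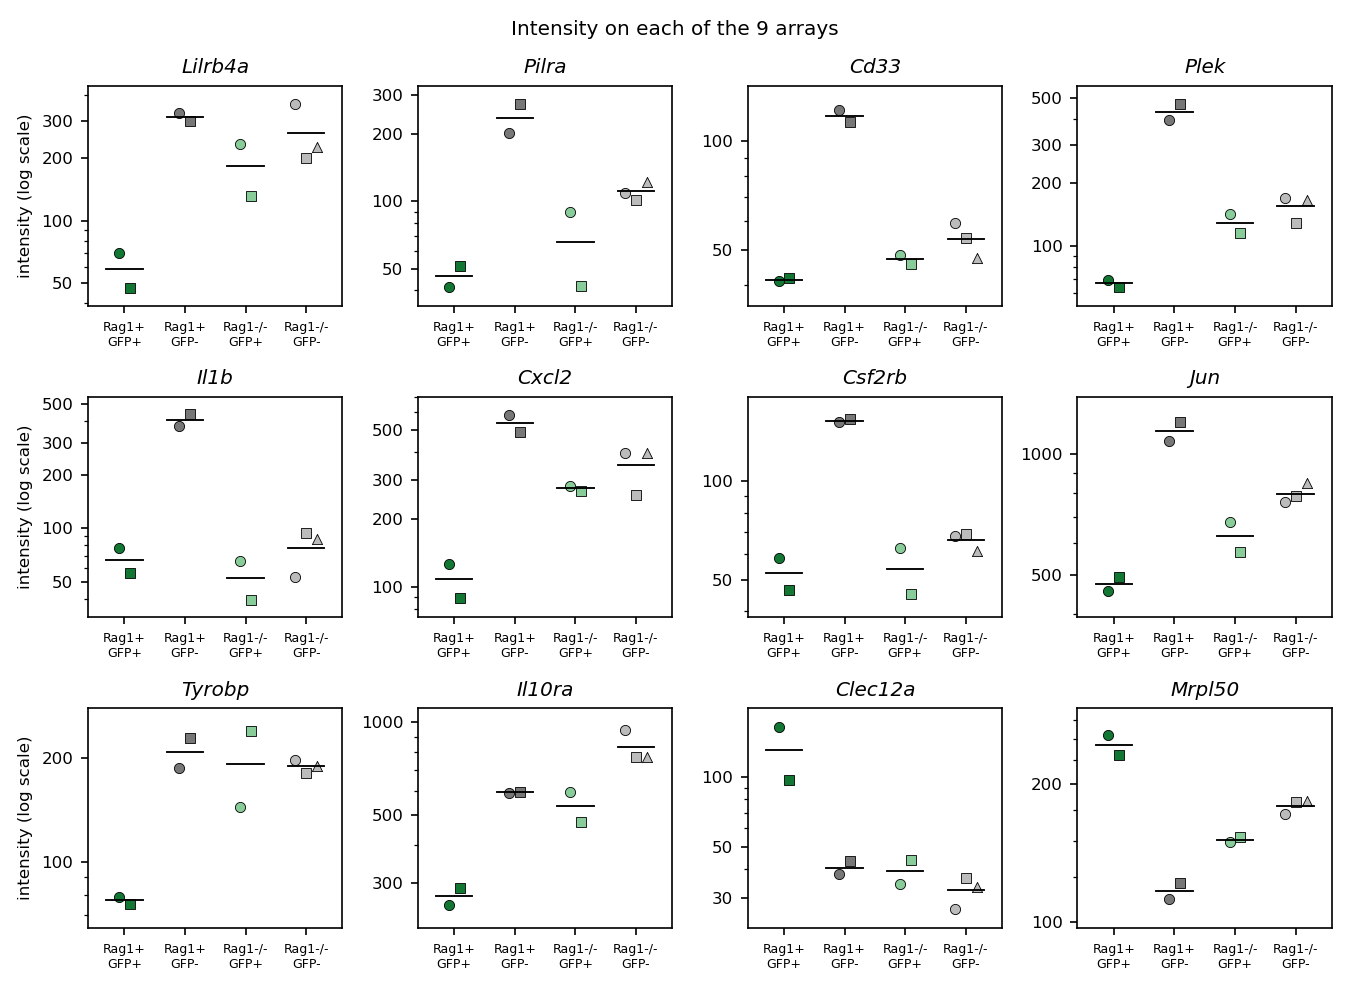
Intensity of 12 genes on each of the 9 arrays (log scale; circle, square and triangle are replicates 1, 2 and 3; bars are means; Rag1+ stands for Rag1-sufficient). In Rag1-sufficient mice the 2 fractions do not overlap for any of the 12; in Rag1-/- mice Il1b stays at 39.6 to 94.1 on all arrays, whereas Tyrobp stays at 144 to 239.

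Of 10 measured Fc receptor and adaptor genes 4 fell and 3 had a positive difference, and the list median was -0.48 (-0.09 over the members with a mean intensity of at least 100). Tyrobp, the adaptor DAP12 that couples activating receptors to SYK, was read at 79.2 and 75.5 against 187 and 228 (-1.41 ± 0.22, adjusted p = 0.0257). Fcgr2b, the inhibitory IgG receptor, was read at 85.0 and 62.5 against 156 and 183 (-1.20 ± 0.20, adjusted p = 0.0405), and Fcgr3, a low-affinity activating IgG receptor, at 51.5 and 46.8 against 76.9 and 75 (-0.62 ± 0.10, adjusted p = 0.0281). The other member that fell, Ms4a2, is the beta chain of the IgE receptor and also belongs to the mast cell list.

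Among 17 measured cytokine genes 1 fell, and the list median was -0.18. Il1b, the inflammatory cytokine interleukin-1 beta, was read at 77.5 and 56.0 in GFP+ and at 373 and 439 in GFP- cells, 6.07-fold lower (-2.60 ± 0.31, adjusted p = 0.0106). On the 5 Rag1-/- arrays it was read at 39.6 to 94.1, below both Rag1-sufficient GFP- samples. A pair of further growth factor genes of myeloid cells missed the threshold: Csf1 was read at 72.1 and 71.0 against 107 and 108 (-0.58 ± 0.12, adjusted p = 0.0715) and Csf2 at 76.0 and 86.6 against 188 and 125 (-0.91 ± 0.21, adjusted p = 0.109).

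Of 17 chemokine genes 1 fell and 14 had a negative difference (median -0.17). Cxcl2, which attracts neutrophils, was read at 127 and 89.2 in GFP+ and at 581 and 491 in GFP- cells (-2.32 ± 0.25, adjusted p = 0.0101). The monocyte attractants Ccl2 (99.9 and 100 against 190 and 146, -0.73 ± 0.13, adjusted p = 0.0542) and Ccl3 (92.2 and 46.7 against 161 and 279, -1.68 ± 0.32, adjusted p = 0.0639) also had lower values in both GFP+ arrays without passing.

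Of 28 cytokine receptor genes 3 fell, and none rose (median -0.15). Csf2rb, the beta chain shared by the receptors for interleukin-3, interleukin-5 and GM-CSF, was read at 58.0 and 46.4 against 151 and 154 (-1.54 ± 0.16, adjusted p = 0.0101). Its neighbour Csf2rb2, the interleukin-3-specific beta chain of mice, was read at 65.3 and 83.2 against 226 and 227 (-1.61 ± 0.25, adjusted p = 0.0256). Both GFP- arrays were thus close to each other and above both GFP+ arrays. Il10ra, the ligand-binding chain of the receptor for the anti-inflammatory cytokine interleukin-10, was read at 254 and 291 against 590 and 594 (-1.12 ± 0.18, adjusted p = 0.0328).

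Genes that relay signals from surface receptors included the most clearly separated gene of the comparison. Plek, a leukocyte substrate of protein kinase C, was read at 69.6 and 64.0 in GFP+ and at 394 and 471 in GFP- cells, 6.37-fold lower (-2.67 ± 0.17, adjusted p = 0.00202). Prkcb, the protein kinase C beta gene, was read at 73.5 and 70.0 against 169 and 173 (-1.24 ± 0.12, adjusted p = 0.00843). Inpp4b, a phosphatase that removes a phosphoinositide made by PI3 kinase, was read at 176 and 194 against 393 on both GFP- arrays (-1.08 ± 0.17, adjusted p = 0.0261). These were 3 of 25 measured members of the kinase and G protein list, none of which rose (median -0.08). Outside that list the feedback inhibitor of receptor tyrosine kinase signalling Spry2 (63.6 and 64.9 against 99 and 93, -0.57 ± 0.09, adjusted p = 0.0256) and the phosphodiesterase Pde7b (128 and 130 against 321 and 349, -1.37 ± 0.23, adjusted p = 0.0422) fell.

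The AP-1 transcription factor genes Jun and Fos fell, the only called members of 32 measured immediate early genes. Jun was read at 458 and 494 in GFP+ and at 1079 and 1205 in GFP- cells (-1.26 ± 0.16, adjusted p = 0.0119), and Fos at 832 and 689 against 1350 and 1519 (-0.92 ± 0.15, adjusted p = 0.0337). Of the 32 genes 28 had a negative difference, with a median of -0.31 against 0.02 over all genes, and in 23 both GFP+ arrays were below both GFP- arrays, an order seen in 21.3% of all genes. The MAP kinase phosphatase Dusp1 was read at 4781 and 4439 against 6497 and 6437 (-0.49 ± 0.09, adjusted p = 0.0605).

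None of 19 NF-kB pathway and feedback genes passed the limma threshold, while 17 had a negative difference (median -0.22). In 14 both GFP+ arrays were below both GFP- arrays. Over all genes 45.8% had a negative difference and 21.3% had this order. The inhibitors of NF-kB encoded by Nfkbid (446 and 375 against 724 and 699, -0.80 ± 0.15, adjusted p = 0.065), Nfkbia (1572 and 1525 against 2593 and 2381, -0.68 ± 0.17, adjusted p = 0.126) and Nfkbiz (463 and 450 against 770 and 686, -0.67 ± 0.16, adjusted p = 0.126) had the smallest p. Heat shock and unfolded protein response genes, read beside them, had a median of 0.08 with 0 of 20 called.

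Integrin chains fell in 2 of 24 measured adhesion genes (median -0.07). Itga4, the alpha 4 chain of VLA-4, was read at 39.3 and 52.5 against 274 and 223 (-2.42 ± 0.37, adjusted p = 0.0256), and Itga5, the fibronectin receptor chain, at 69.0 and 90.3 against 189 and 194 (-1.27 ± 0.19, adjusted p = 0.0221). The tetraspanin gene Cd81 was read at 673 and 752 against 2057 and 2049, 2.88-fold lower (-1.53 ± 0.22, adjusted p = 0.0219).

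Several receptors and transporters of small ligands fell too. Gpr141b, an orphan receptor, was read at 49.9 and 33.3 against 175 and 274 (-2.40 ± 0.26, adjusted p = 0.0101). Mc5r, a melanocortin receptor, was read at 116 and 122 against 583 and 545 (-2.24 ± 0.34, adjusted p = 0.0256). Slc6a4, the serotonin transporter, was read at 82.5 and 80.0 against 278 and 303 (-1.82 ± 0.24, adjusted p = 0.015), and Maob, which degrades monoamines, at 43.8 and 51.8 against 182 and 133 (-1.69 ± 0.20, adjusted p = 0.0101). Among 242 solute carriers Slc6a4 and Slc45a3 (-0.70) were the 2 that fell. The platelet-activating factor receptor Ptafr (108 and 103 against 183 on both, -0.79 ± 0.12, adjusted p = 0.0256), the GDNF family receptor Gfra2 (69.7 and 85.7 against 218 and 213, -1.46 ± 0.24, adjusted p = 0.036) and Mrgprb13, a relative of the mast cell receptor Mrgprb1 separated from it by 1 protein-coding gene (40.3 and 42.2 against 61.4 and 82.3, -0.77 ± 0.13, adjusted p = 0.0447), fell as well.

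Other genes among the 15 largest decreases of called named genes outside the mast cell list were Vwa5a (67.7 and 53.6 against 214 and 229, -1.86 ± 0.18, adjusted p = 0.00843) and the membrane protein gene Plxdc2 (62.2 and 68.9 against 231 and 182, -1.63 ± 0.20, adjusted p = 0.0119). The protease inhibitor Serpinb1a was read at 226 and 222 against 662 and 654 (-1.55 ± 0.23, adjusted p = 0.022). The called probe set of Zc3h12c, a regulator of the RNase family of Regnase-1, fell by 1.56 ± 0.26 (adjusted p = 0.04), but the brighter probe set of that gene was read at 93.9 and 157 against 345 and 324 and did not pass (-1.46 ± 0.40, adjusted p = 0.173).

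Lipid and oxidative enzymes fell singly. Ptgs2, the inducible cyclooxygenase COX-2, was read at 124 and 110 against 317 and 284 (-1.35 ± 0.23, adjusted p = 0.042) and was the 1 called gene of 20 lipid mediator genes. Alox5ap, needed for leukotriene synthesis, was read at 56.8 and 50.7 against 101 and 88.1 (-0.80 ± 0.15, adjusted p = 0.0542). The glutathione transferase Gstm1 (175 and 196 against 367 and 387, -1.02 ± 0.15), the aldehyde dehydrogenase Aldh2 (54.9 and 56.4 against 111 and 107, -0.96 ± 0.17), the sterol hydroxylase Cyp27a1 (-0.59 ± 0.10) and Pdk4, a kinase that inactivates pyruvate dehydrogenase (44.9 and 54.6 against 82.2 and 107, -0.91 ± 0.16, adjusted p = 0.0477), also fell. The lipid synthesis gene Scd1 had the values 99.2 and 463 against 1398 and 3798 (-3.42 ± 0.67, adjusted p = 0.0687), and was highest in GFP- replicate 2, which also had the highest keratinocyte marker sum.

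The remaining named genes that fell differed by -1.03 to -0.49. They were Gask1b, Plk2, Wdfy4, Rnd3, Atp6v0a1, Ccdc184, Lrrk2, Chpt1, Xcr1, Marcks, Rab7b, Dapk1, Stard13, Adam23, Tbc1d9, Anpep, Asph, Plscr4 and Aff3. Among them Wdfy4 and Xcr1 are known from cross-presenting dendritic cells; Wdfy4 fell on both of its probe sets (-1.01 ± 0.15 and -0.75 ± 0.10), and Xcr1 was read at 38.3 and 38.2 against 68.2 and 65.0 (-0.78 ± 0.07, adjusted p = 0.00843).

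A few non-coding RNAs fell. Snora75, a small nucleolar RNA that guides pseudouridylation, had the largest decrease among called named genes outside the mast cell list: 53.2 and 80.3 against 622 and 492, 8.35-fold lower (-3.06 ± 0.42, adjusted p = 0.0182). Snora74a was read at 114 and 120 against 341 and 303 (-1.45 ± 0.22, adjusted p = 0.0242), and the long nuclear RNA Malat1 at 498 and 548 against 1429 and 1353 (-1.41 ± 0.25, adjusted p = 0.0483). Snora75 and Snora74a were the 2 called of 43 measured small nucleolar RNAs, of which 33 had a negative difference, with a median of -0.43. Without GFP+ replicate 2 that median was -0.18, and without GFP- replicate 1 it was -0.28.

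Outside the histone, replication and mitosis lists 14 named genes rose, 5 of them for mitochondrial proteins, a grouping made after their values were seen. Mrpl50, of the large mitochondrial ribosomal subunit, was read at 255 and 230 in GFP+ and at 112 and 122 in GFP- cells (1.04 ± 0.12, adjusted p = 0.0101), and Mrps11, of the small subunit, at 235 and 247 against 149 and 132 (0.78 ± 0.14, adjusted p = 0.0443). Mpc1, a subunit of the mitochondrial pyruvate carrier, was read at 1812 and 1652 against 951 and 884 (0.92 ± 0.15, adjusted p = 0.0302). Crls1, the cardiolipin synthase, was read at 101 and 109 against 63.1 and 62.1 (0.74 ± 0.13, adjusted p = 0.0483). The coenzyme Q-binding gene Coq10a was read at 288 and 265 against 161 and 155 on its called probe set (0.80 ± 0.14, adjusted p = 0.0414), whereas its second probe set, at 172 and 135 against 145 and 128, did not pass (0.15 ± 0.15, adjusted p = 0.778).

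Of the other genes that rose, Nek6, a kinase of mitotic entry, was read at 329 and 355 against 177 and 161 (1.01 ± 0.13, adjusted p = 0.0145), and Pigf, of the GPI anchor pathway, at 298 and 352 against 159 and 161 (1.01 ± 0.18, adjusted p = 0.0493). The potassium channel Kcnk1 was read at 271 and 233 against 134 and 154 (0.80 ± 0.14, adjusted p = 0.0477). Mmp10, the matrix protease stromelysin-2, was read at 126 and 145 against 74.2 and 77.7 (0.82 ± 0.13, adjusted p = 0.0319), and at 48.5 to 69.0 on the 5 Rag1-/- arrays. Exosc3, of the RNA exosome (0.57 ± 0.09), the centromere gene Cenpm (0.64 ± 0.10), the proliferation-linked Prr11 (0.71 ± 0.11) and the histone gene H2bu2 (0.46 ± 0.08) rose by less.

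Of the lists of housekeeping machinery, those of mitochondria and the proteasome had the higher medians, with Mrpl50 and Mrps11 as their only calls. Oxidative phosphorylation subunits had a median of 0.45 over 78 genes, 70 of them positive and 0 called, and of 0.29 without GFP+ replicate 1. Their summed intensity was 69747 and 57843 in GFP+ and 48627 and 46877 in GFP- cells. On the Rag1-/- arrays it was 46053 and 62109 in GFP+ and 56414 to 75304 in GFP- samples, so arrays of 1 group also stood far apart. Mitochondrial ribosomal proteins had a median of 0.29 over 72 genes with 2 called (0.18 without GFP+ replicate 1), proteasome subunits 0.27 over 42 genes and MHC class I genes 0.30 over 11 genes (0.17 after quantile normalization), both with 0 called. Proteasome subunits summed to 25046 and 22761 in GFP+ and to 17698 and 16998 in GFP- cells. On the Rag1-/- arrays they summed to 16078 and 21585 in GFP+ and to 20572 to 28141 in GFP- samples. The part of variation between arrays in these medians was not tested. The complex I subunit Ndufb11, at 1568 and 1350 against 612 and 530, differed by 1.35 ± 0.32 (adjusted p = 0.12), and the proteasome subunit Psmb3, at 6098 and 5644 against 3915 and 3546, by 0.65 ± 0.14 (adjusted p = 0.0958).

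The difference also varied with brightness over all genes, and its part in these medians was not tested. In the dimmest eighth of tested probe sets the median difference was -0.01 and 46.4% were positive, while in the brightest eighth it was 0.12 and 67.6% were positive. Olfactory receptor genes, dim and without a known role in ILCs, had a median of -0.09 over 131 genes, 108 of them negative. A median of a bright gene family stands beside that 0.12, not beside 0. Splicing factors had a median of 0.03 over 58 genes, 31 positive and 27 negative, and aminoacyl-tRNA synthetases one of 0.09 over 29 genes, with 0 called in either. Cytosolic ribosomal proteins had a median of 0.13 over 58 genes, close to that of the brightest eighth, whereas the 0.45 of the oxidative phosphorylation subunits lay above it.

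**Figure D3:**
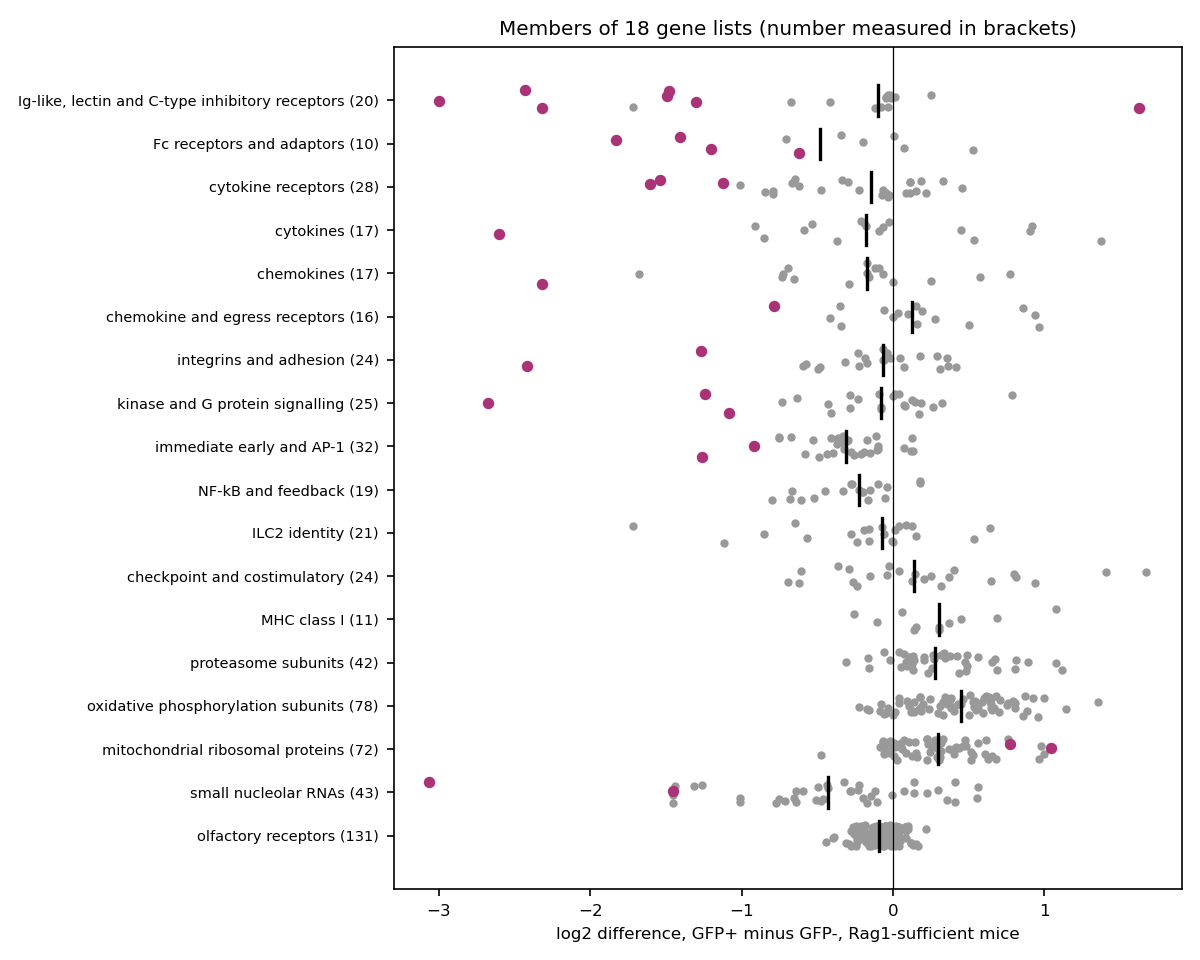
Each point is a measured gene of the list named at left, placed by its log2 difference, GFP+ minus GFP-; large purple points passed the limma threshold and black bars are list medians. Single called genes such as Lilr4b, Plek and Il1b lie far below the medians of their lists and Clec12a above, whereas the oxidative phosphorylation and proteasome genes had medians of 0.45 and 0.27.

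Of the histone and division lists, 7 of 33 measured histone genes (median 0.66), 7 of 31 mitosis genes (0.57) and 2 of 35 replication genes (0.31) rose. H2bc14 was read at 2392 and 2270 against 840 and 711 (1.59 ± 0.19, adjusted p = 0.0101), H2bc3 at 481 and 396 against 174 and 136 (1.5 ± 0.17, adjusted p = 0.0101) and H2ac4 at 182 and 156 against 63.2 and 59.2 (1.45 ± 0.16, adjusted p = 0.0101). Core histone genes are alike enough in sequence for probes to read several of them. Nucleotide synthesis genes, which feed replication, had a median of 0.14 with 0 of 22 called, and DNA repair genes one of 0.12 with 0 of 14 called.

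Genes that define ILC2 gave no call at this number of arrays. Of 21 measured, 4 had both GFP+ arrays above both GFP- arrays and 10 had both below. Over all genes 29.1% and 21.3% had these orders. Gata3 was read at 2263 and 2813 in GFP+ and at 3614 and 3881 in GFP- cells (-0.57, limma adjusted p = 0.306). None of 21 measured ILC2 genes and none of 24 lymphocyte transcription factor genes passed (medians -0.07 and -0.07), in a limma fit with 2264 probe sets at an unadjusted p under 0.05. The inhibitory receptor Cd200r1, which belongs to the ILC2 list and marks mast cells too, was read at 34.1 and 31.7 against 110 on both GFP- arrays (-1.72 ± 0.34, adjusted p = 0.0688). Klrg1 was read at 44.8 and 37.1 against 85.8 and 92.9 (-1.11 ± 0.27, adjusted p = 0.126), and Thy1 at 5025 and 5227 against 3453 and 3121 (0.64 ± 0.16, adjusted p = 0.127). The transcription factor Bach2 had the smallest p of its list (102 and 105 against 190 and 187, -0.86 ± 0.20, adjusted p = 0.113).

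Some genes of costimulation, killer receptors and migration had large differences without passing. Cd80, a ligand of CD28 and CTLA-4, was read at 550 and 557 in GFP+ against 196 and 152 in GFP- cells (1.67 ± 0.37, adjusted p = 0.0998), and Cd48 at 505 and 376 against 180 and 148 (1.41 ± 0.33, adjusted p = 0.121). On the Rag1-/- arrays Cd80 was read at 78.9 to 209, far below the GFP+ arrays of Rag1-sufficient mice. The tetraspan gene Ms4a4b was read at 253 and 162 against 48.9 and 56.4 (1.93 ± 0.52, adjusted p = 0.163), and the lectin receptor Klrb1f at 641 and 549 against 193 and 239 (1.46 ± 0.46, adjusted p = 0.227). The gamma delta T cell receptor segment Trgv1 was read at 1361 and 1748 against 703 and 716 (1.12 ± 0.37, adjusted p = 0.246). Of 16 chemokine and egress receptors only Xcr1 was called, and S1pr1, the egress receptor for sphingosine-1-phosphate, had 175 and 255 against 118 and 114 (0.86 ± 0.18, adjusted p = 0.0915). Except for Xcr1, which fell, each of these genes had both GFP+ arrays above both GFP- arrays. That order was seen in 29.1% of all genes.

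Interferon-stimulated genes (0 of 21 called, median 0.12), TNF superfamily genes (0 of 26, 0.01), checkpoint and costimulatory genes (0 of 24, 0.14), MHC class II genes (0 of 14, 0.01), glycolysis genes (0 of 15, 0.04) and cholesterol and lipid synthesis genes (0 of 20, -0.09) gave no call. Of 23 lysosome and degranulation genes 2 fell, the mast cell and neutrophil protease Ctsg and the proton pump subunit Atp6v0a1. In all, 38 of 59 lists had no called member.

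Mast cell markers were lower in GFP+ cells in every one of the 16 measured genes, and 10 fell. Their summed intensity was 1298 and 1489 in GFP+ and 11296 and 11522 in GFP- cells. On the Rag1-/- arrays it was 5441 in GFP+ replicate 1, 1832 in GFP+ replicate 2 and 5351 to 6709 in the GFP- samples. Among the 64 other named genes that fell, 47 (73.4%) were higher in Rag1-/- GFP+ replicate 1 than in replicate 2, against 46.4% of all tested genes, with a median log2 ratio of 0.12 against -0.01. Both replicates entered the spread of the fit, so genes far apart between them were less readily called. The size of this ratio in called genes therefore cannot be judged. The part of mast cell transcripts in the 64 genes was not tested.

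Other marker lists separated the fractions less. Of 15 keratinocyte markers 0 were called and 15 were negative (median -0.63, or -0.12 without GFP- replicate 2 and -1.0 without GFP- replicate 1), with sums of 3304 and 2920 in GFP+ and of 3445 and 5435 in GFP- cells, the last in replicate 2. Dendritic and Langerhans cell markers summed to 6893 and 7717 against 7380 and 9213, with 1 of 15 called (Xcr1), and macrophage and monocyte markers to 1108 and 1269 against 1788 and 2285, with 0 of 11 called. T cell markers summed to 4218 and 3527 in GFP+ and to 2867 and 2760 in GFP- cells, with 0 of 12 called, and to 4417 to 8164 on the Rag1-/- arrays. Natural killer and ILC1 markers (0 of 9), ILC3 markers (0 of 9), B and plasma cell markers (0 of 9), neutrophil markers (0 of 4), fibroblast markers (0 of 16) and endothelial markers (0 of 14) gave no call. The part of these cells in the differences was not tested.

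**Figure D4:**
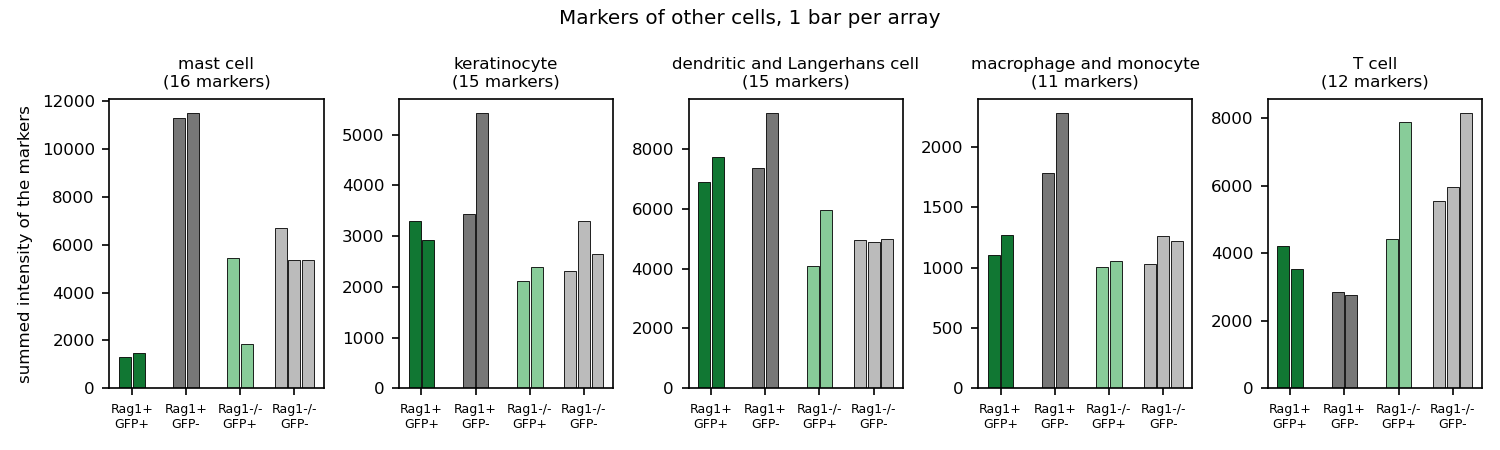
Summed intensity of the measured markers of 5 cell types, with 1 bar for each array (Rag1+ stands for Rag1-sufficient). Mast cell markers are at 1298 and 1489 in Rag1-sufficient GFP+ and at 11296 and 11522 in GFP- cells; keratinocyte markers stand out in GFP- replicate 2 at 5435.

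The 5 Rag1-/- arrays, which had no part in the definition of the 2 fractions, were placed between them for each called gene on the log2 scale, with 0 at the Rag1-sufficient GFP- mean and 1 at the GFP+ mean. They entered the spread of the fit. For the 64 other named genes that fell, the median position was 0.63 and 0.86 in the 2 GFP+ arrays and 0.49, 0.60 and 0.55 in the 3 GFP- arrays. All 5 arrays lay nearer the GFP+ mean in 30 of these genes and nearer the GFP- mean in 9, and 25 were mixed. Positions were not taken for genes that were not called. No share over all genes therefore stands beside these counts or those below, and they describe the picked genes only.

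The genes nearer the GFP+ than the GFP- mean on all Rag1-/- arrays included Il1b, Csf2rb, Csf2rb2, Cd33, Clec10a, Gpr141b, Slc6a4, Gfra2, Fcgr2b and Xcr1. Of the 10 called genes of the mast cell list 5 also lay there. That list had median positions of 0.53 to 0.59 in the Rag1-/- GFP- arrays. The part of mast cell transcripts was not tested. Csf2rb was read at 62.3 and 45.3 in the Rag1-/- GFP+ and at 61.2 to 69.0 in the Rag1-/- GFP- samples, against 151 and 154 in Rag1-sufficient GFP- cells. Cd33 was read there at 45.7 and 48.6 and at 47.7 to 59.5. That the Rag1-sufficient GFP- samples were the high ones among all 9 arrays followed from how these genes were picked.

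The 9 genes nearer the GFP- than the GFP+ mean on all Rag1-/- arrays were Cxcl2, Zc3h12c, Tyrobp, Pde7b, Ptgs2, Il10ra, Inpp4b, Atp6v0a1 and Spry2. Tyrobp was read at 144 and 239 in the Rag1-/- GFP+ and at 181 to 198 in the Rag1-/- GFP- samples, and Il10ra at 594 and 475 and at 774 to 948. In Rag1-/- GFP+ replicate 2 Tyrobp was at 239, Ptgs2 at 398 and Pde7b at 316. In replicate 1 they were at 144, 310 and 338. Of the 9 genes 6 were higher in replicate 1, Zc3h12c (218 against 124), Il10ra, Atp6v0a1 (164 against 138), Cxcl2, Inpp4b and Pde7b, and 3 were higher in replicate 2. That the Rag1-sufficient GFP+ samples were the low ones among all 9 arrays followed from how these genes were picked. Of the 10 called genes of the mast cell list 2, Kit and Rab27b, also lay nearer the GFP- mean on all 5 Rag1-/- arrays. The part of mast cell transcripts was not tested.

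Among the genes that rose, all 5 Rag1-/- arrays lay nearer the GFP- level in 18 of 31 and nearer the GFP+ level in 2, Mpc1 and Coq10a. The median position of the 14 other named genes was 0.23 to 0.40 over the 5 arrays, and that of the 7 genes of the histone list 0.08 to 0.43. H2bc14 was read at 711 to 1144 on the 7 other arrays, against 2270 and 2392 in Rag1-sufficient GFP+ cells.

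**Figure D5:**
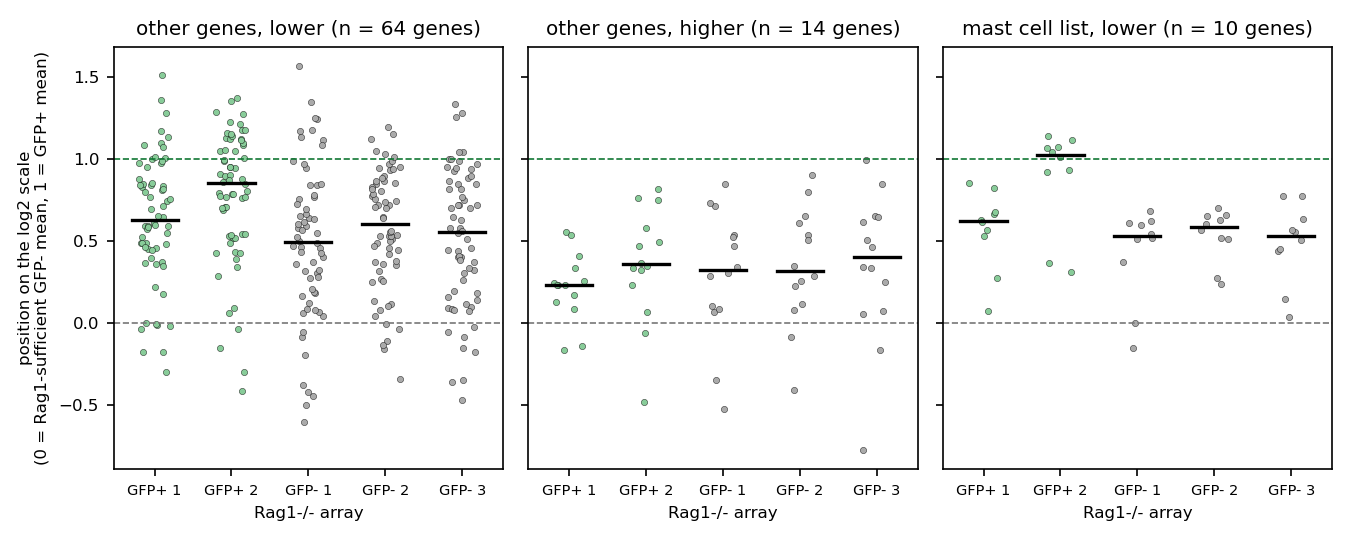
Position of each Rag1-/- array between the Rag1-sufficient fractions on the log2 scale (0, GFP- mean; 1, GFP+ mean) for called genes, 1 point for each gene, with black bars at the median. Genes that fell spread over the whole range with medians of 0.49 to 0.86, and the mast cell genes of GFP+ replicate 2 lie at a median of 1.03.

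The difference of the gate effect between genotypes was tested as an interaction over all 17445 probe sets. By limma 0 (0%) passed, with a smallest adjusted p of 0.0723 and 2378 sets at an unadjusted p under 0.05. Without Rag1-/- GFP+ replicate 2, which leaves a lone array in that group, 500 passed. The positions above are therefore a description, and a gate effect particular to Rag1-sufficient mice was not shown by this test.

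The calls rested on few arrays. Leaving out 1 of the Rag1-sufficient arrays, with the lone array of its fraction assumed to vary like the other groups, left few of the 140 calls. When GFP+ replicate 1 was dropped 5 probe sets passed, and 6 when GFP+ replicate 2 was. Dropping GFP- replicate 1 gave 5 and dropping GFP- replicate 2 gave 3. After removal of Rag1-/- GFP+ replicate 1 the count was 333, of Rag1-/- GFP+ replicate 2 it was 335, and of Rag1-/- GFP- replicate 2 it was 68. Plek, Pilrb1 and Cd33 were called in each of these 4 fits. Of the 104 named genes, 26 were called under each of the other alternatives run on them, among them Il1b, Jun, Itga4, Lilr4b, Lilrb4a, Pilrb1, Pilrb2, Csf2rb, Clec10a, Prkcb, Slc6a4, Vwa5a, Xcr1, H2bc14 and H2ac4.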

How the data were processed

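For each array the authors deposited linear intensity values of 24922 probe sets. Per the submitters' processing notes MAS5 was used; its version and role, the normalization and the build are not given in the sources used here. Values were already on a common scale. Some probe sets held equal values on both arrays of a fraction (722 GFP+, 686 GFP-), which understates their spread. Gene names came from the platform annotation and were updated through gene identifiers; 21425 probe sets had 1 symbol. After log2(value + 1), the dimmest 30% by mean log2 value (below 41.6) were left out. Group means over all 9 arrays were fitted with limma 3.58.1 in R 4.3.3 (eBayes with trend), two-sided, and the fit was tested on simulated data. Named were called genes with 1 symbol and, in lists with fewer than 3 called, the members with the smallest p up to 3. The comparison, the lists and their members were chosen with earlier results of these data known. Promoters came from RefSeq. Some genes are not reported here. Alternatives changed the arrays, block, scaling, pseudocount, filter, eBayes settings and weights.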

Additional observations from a re-analysis of the deposited data

Results flagged for a closer look

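For 6 genes called between the fractions of Rag1-sufficient mice, every Rag1-/- GFP+ array lay on the opposite side of every Rag1-/- GFP- array. The difference between the 2 gate effects, Rag1-/- minus Rag1-sufficient on the log2 scale, was tested by the limma interaction and passed the adjusted threshold in none of them. It was -1.29 ± 0.16 for Mrpl50, -1.06 ± 0.16 for Plk1 and 0.78 ± 0.12 for Spry2, each with an adjusted p of 0.0723. It was -0.74 ± 0.12 for the kinesin Kif18b (adjusted p = 0.103), -0.98 ± 0.18 for Mrps11 and 1.17 ± 0.22 for Pdk4 (adjusted p = 0.143 for both). Mrpl50 was read at 255 and 230 in GFP+ and 112 and 122 in GFP- cells of Rag1-sufficient mice, and at 149 and 153 in GFP+ and 171 to 183 in GFP- cells of Rag1-/- mice. Spry2 was read at 63.6 and 64.9 against 99 and 93 in Rag1-sufficient mice, and at 103 and 113 against 93.0 on all 3 GFP- arrays in Rag1-/- mice.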

How the results depend on the processing

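The 140 calls (58 higher, 82 lower) became 73 (26 and 47) with the replicate number as a block, and 65 of the 140 remained. The deviations of Rag1-sufficient GFP+ and GFP- replicate 1 from their group means correlated at only 0.08. The shared numbers are therefore not taken as a pairing, though the Rag1-/- arrays were not checked in this way. With array weights 1290 were called (866 and 424). With the 4 Rag1-sufficient arrays alone 109 were called (56 higher and 53 lower), and 71 of the 140 remained. Of the 104 named genes 56 lost their call in that fit. With a mean intensity of at least 100, 45 were lower, since fewer probe sets were tested. Leaving out 1 array at a time gave 3 to 335 calls, 0 to 212 higher and 3 to 123 lower: 333 without Rag1-/- GFP+ replicate 1, 335 without replicate 2 and 68 without Rag1-/- GFP- replicate 2. The interaction gave 1 call with quantile normalization, 27 with a mean of at least 100, 31 with array weights and 0 to 500 when 1 array was left out. With 1 array left out, the differences of 5 genes that were not called changed sign: Blk ranged from -0.022 to 0.27, Siglecf from -0.098 to 0.028, Acta1 from -0.070 to 0.26, Trav13-5 from -0.066 to 0.20 and Ighm from -0.16 to 0.018. No named gene that passed changed direction under any alternative run. With 1 array left out this was fixed beforehand, because the fractions of every called gene did not overlap. Changes of filter or eBayes settings leave the difference itself as it was. Of the list medians 1158 recomputed values moved by less than the spread between replicates and 79 by more; the cause was not tested. Only 2 arrays in each fraction limit what can be called.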
